A study of Mus musculus with 8 samples.

Results

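The caspases, the BCL2 family, the inhibitor of apoptosis proteins (IAPs) and the apoptosome were examined in cardiac ventricles of tumor-bearing mice, as 36 genes picked by symbol from the 43346 genes of the deposited count table. All 36 were listed there on 1 row each. The members comprised 20 genes whose products promote cell death, 9 whose products oppose it and 7 that act in both ways or in inflammation. Ventricular RNA came from 8 male C57BL/6 mice. At 7 weeks of age, 4 of them received 1000000 LLC1 cells in PBS under the skin of the left flank, and the other 4 received PBS alone. LLC1 is a mouse lung carcinoma line that grows in C57BL/6 hosts, so the tumor-bearing group rests on a single cell line. All hearts were collected 14 days after the injection, and no other tissue or time was sequenced. Mice are named by their injection and replicate code, such as PBS 1-1. In bulk ventricle, fewer cells of a type and less RNA per cell cannot be told apart.

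Apoptosis runs along a mitochondrial and a death receptor branch. In the mitochondrial branch, BH3-only proteins such as BIM (Bcl2l11) and BID unlock effectors such as BAK1, which anti-apoptotic BCL2 proteins hold in check, and cytochrome c (Cycs) that leaves the mitochondria then binds APAF1 to form the apoptosome, on which caspase-9 becomes active. In the other branch, FADD couples death receptors to caspase-8, and c-FLIP (Cflar) limits that step. IAPs such as XIAP block caspases or ubiquitinate their partners, and DIABLO and HTRA2 relieve the block. Adult cardiomyocytes divide rarely, and the loss of such cells is hard to replace.

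Libraries held between 12480706 and 19747596 counts on genes, so that 1 CPM, a count per 1000000 counts after scaling by edgeR's TMM factors, stood for 11.7 to 19.9 counts. The summed CPM of 8 cardiomyocyte markers lay between 95385 and 112023 in every library, so transcripts of the labelled tissue were abundant. Of all genes, 16111 passed edgeR's filter on low counts and were compared between the groups with edgeR's quasi-likelihood test. FDR below is the p-value of that test after Benjamini-Hochberg adjustment over all 16111 genes, and a call is an FDR under 0.05. Each log2 fold change sets tumor-bearing against PBS-injected mice, so that negative values mean lower in tumor-bearing mice, and their median over all genes tested was -0.01. Of the 36 members, 35 were tested. The exception was Pmaip1, which encodes the BH3-only protein NOXA and had 2, 7, 3 and 2 counts in the tumor-bearing mice against 2, 10, 9 and 10 in the PBS-injected mice.

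Apaf1, Xiap, Birc3 and Bok were lower in tumor-bearing mice, and no member was called higher. The changes were small, with levels between 0.668 and 0.831 times those of PBS-injected mice. The calls fell on both sides of the pathway, with Apaf1 and Bok promoting death and Xiap and Birc3 opposing it. The share of members called lower was 11.4%, against 4.61% of all genes tested. In the other direction 0 of 35 members were called by edgeR, against 4.12% of all genes, and DESeq2 and limma-voom also called 0 higher. At an unadjusted edgeR p under 0.05, 3 members were higher (8.57%, against 12.4% of all genes) and 10 were lower (28.6%, against 13.0%). Counted in either direction, the 4 calls came to 11.4% of the members against 8.73% of all genes, a share close to the background. No member was called lower without LLC1 1-3, without LLC1 1-5 or without PBS 1-3, and without LLC1 1-2 only Apaf1 was. In those 4 fits the calls over all genes fell as well, from 1406 to between 542 and 751. The log2 fold changes stayed in a narrow range in all 8 fits without 1 mouse, from -0.47 to -0.37 for Apaf1, -0.30 to -0.23 for Xiap, -0.51 to -0.38 for Birc3 and -0.70 to -0.51 for Bok.

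**Figure D1:**
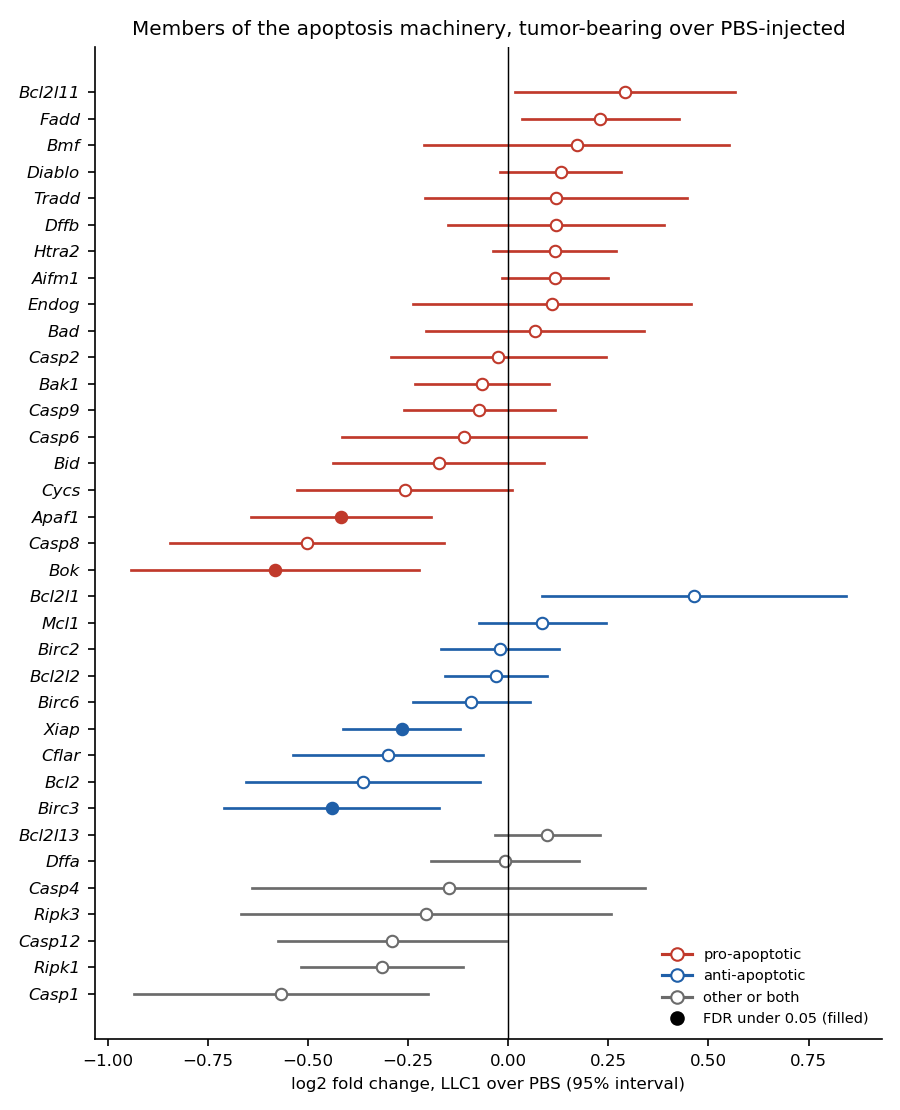
Log2 fold change of tumor-bearing (LLC1) over PBS-injected mice for the 35 members tested, with 95% intervals from edgeR's fit, on the horizontal axis and genes on the vertical axis, grouped as pro-apoptotic (red), anti-apoptotic (blue) and other (gray). Filled points mark the 4 members with an FDR under 0.05, Apaf1, Bok, Xiap and Birc3, all of them left of 0.

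The stretch upstream of the start of each called gene is shown because the 4 genes moved the same way. The sequences are the 250 bases before the RefSeq start, GRCm38.p6 build, written from 5′ to 3′ on the strand of the gene, and capitals mark GC boxes (GGGCGG on either strand). The starts used for Apaf1, Xiap and Birc3 lie inside the genes as the deposited table bounds them, and that used for Bok lies upstream of the listed start of the gene.
Apaf1 (chr10:91082744-91082993, minus strand): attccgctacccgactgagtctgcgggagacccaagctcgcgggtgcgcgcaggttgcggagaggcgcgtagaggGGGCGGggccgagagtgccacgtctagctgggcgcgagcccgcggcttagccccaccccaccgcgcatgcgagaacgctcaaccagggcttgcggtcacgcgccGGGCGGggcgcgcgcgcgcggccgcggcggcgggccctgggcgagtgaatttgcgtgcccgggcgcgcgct
Xiap (chrX:42068148-42068397, plus strand): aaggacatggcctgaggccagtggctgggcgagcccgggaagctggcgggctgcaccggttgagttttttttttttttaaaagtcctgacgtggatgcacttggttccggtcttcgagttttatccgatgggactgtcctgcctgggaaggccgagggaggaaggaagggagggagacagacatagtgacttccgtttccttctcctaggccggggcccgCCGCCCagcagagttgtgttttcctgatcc
Birc3 (chr9:7873171-7873420, minus strand): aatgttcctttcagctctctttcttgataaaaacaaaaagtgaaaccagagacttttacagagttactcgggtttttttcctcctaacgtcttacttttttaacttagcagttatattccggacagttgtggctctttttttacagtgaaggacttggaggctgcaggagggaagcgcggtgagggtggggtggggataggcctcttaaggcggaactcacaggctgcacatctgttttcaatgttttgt
Bok (chr1:93685325-93685574, plus strand): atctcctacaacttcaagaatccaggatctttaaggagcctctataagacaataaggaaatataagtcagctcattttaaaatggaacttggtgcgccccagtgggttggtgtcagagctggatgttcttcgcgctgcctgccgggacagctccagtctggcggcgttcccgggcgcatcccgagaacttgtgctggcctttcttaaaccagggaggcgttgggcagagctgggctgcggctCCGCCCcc
The Apaf1 stretch held GC boxes whose first bases lie 175 and 71 bases before the start, while Xiap and Bok had 1 each, at 30 and 8 bases before it. The Birc3 stretch held none of the 6 motifs searched. Over the 33 members matched in the RefSeq table, a GC box occurred in 21 (63.6%), against 32.9% of all 27025 promoters of that length. That background was not limited to genes detected in ventricle, while nearly all members passed the filter on low counts. The shares are therefore not like for like. The CCAAT box (CCAAT) occurred in 9 of 33 members, against 34.5% of all promoters, and the TATA box (TATAAA) in Cflar alone, against 13.0%. FOXO sites (TGTTTAC) were found upstream of Bcl2l11 and Casp4, E2F sites (TTTCCCGC) upstream of Casp2 and Fadd, and NF-kB sites upstream of Casp4 and Aifm1, against 3.09%, 0.929% and 7.01% of all promoters. All motifs were read on both strands, and these matches describe letters only. Thus the 4 genes shared no motif among those searched.

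The apoptosome is a wheel of APAF1 molecules with bound cytochrome c. Apaf1 (ENSMUSG00000019979, mm10 chromosome 10, 90989311 to 91082770) had 9.79, 9.28, 8.59 and 7.85 CPM in LLC1 1-2, 1-3, 1-5 and 2-2, and 10.7, 12.3, 12.7 and 11.5 CPM in PBS 1-1, 1-3, 2-1 and 2-5. Every tumor-bearing mouse lay below every PBS-injected mouse, with PBS 1-1 and LLC1 1-2 closest to each other. Its log2 fold change was -0.42 (standard error 0.10, edgeR FDR = 0.0286, exact permutation p = 0.0286, the smallest that 4 mice against 4 allow). Leaving out LLC1 1-3, 1-5 or 2-2, or PBS 1-3 or 2-1, raised the edgeR FDR to between 0.0643 and 0.0868, with log2 fold changes between -0.44 and -0.37. With all mice the call was lost with gene length offsets (-0.32, edgeR FDR = 0.0812) and GC offsets (-0.35, edgeR FDR = 0.0537).

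Cycs encodes the other part of the apoptosome and also carries electrons in the respiratory chain. Its level was 435, 397, 438 and 366 CPM in the tumor-bearing mice against 634, 486, 433 and 404 CPM in the PBS-injected mice. The groups overlapped, and PBS 1-1 stood highest. The log2 fold change of Cycs was -0.26 (standard error 0.12, edgeR FDR = 0.213), and -0.11 without PBS 1-1. Among the alternatives tried, it passed only with a covariate for the leading number in the replicate code (log2 fold change -0.33, edgeR FDR = 0.0381). Transcripts of Cycs were 99.9% identical over 946 bases to those of Gm10053, which had 12059 counts over the 8 mice and a log2 fold change of -0.05 (edgeR FDR = 0.766), so reads may have been divided between these loci.

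Caspases are the proteases that cut cell proteins during death. None of the initiators caspase-2, caspase-8 and caspase-9 passed edgeR's test of the 16111 filtered genes. Casp8, which acts below death receptors, had 8.40, 7.90, 7.55 and 7.75 CPM in tumor-bearing mice against 8.49, 15.2, 9.71 and 11.2 CPM in PBS-injected mice. The groups did not overlap, but LLC1 1-2 and PBS 1-1 were almost level, and PBS 1-3 was far above the rest. Its log2 fold change of -0.50 (standard error 0.16) did not pass the threshold (edgeR FDR = 0.0677, exact permutation p = 0.0286). With all 8 mice Casp8 passed in DESeq2 (adjusted p = 0.0369) and in edgeR with no filter on low counts (FDR = 0.0487). It also passed without PBS 1-1 (log2 fold change -0.60, edgeR FDR = 0.0156), and had a log2 fold change of -0.33 without PBS 1-3 (edgeR FDR = 0.164).

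Casp9, the caspase that docks on the apoptosome, had between 15.1 and 15.9 CPM in tumor-bearing mice and between 14.0 and 17.7 CPM in PBS-injected mice. The interval of its log2 fold change ran from -0.26 to 0.12. Casp2, which responds to DNA damage and other stress, ranged from 11.6 to 12.2 CPM against 9.68 to 14.5 CPM, with an interval from -0.29 to 0.24. Casp6, an executioner, ranged from 6.54 to 8.81 CPM against 6.86 to 10.4 CPM, with an interval from -0.42 to 0.19. These 3 caspases overlapped between the groups and had edgeR FDR values between 0.642 and 0.926. Apaf1 thus passed the test and Casp9, whose product it recruits, did not, and the difference between these genes was not tested.

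Scaled by gene length, Casp1, Casp12 and Casp4 had means of 2.07, 2.04 and 0.830 CPM per kilobase in PBS-injected mice, where Casp2 had 1.72. Casp1, which processes interleukin-1 beta in inflammasomes, had 1.85, 1.71, 2.13 and 2.57 CPM in tumor-bearing mice against 3.17, 3.01, 3.12 and 3.07 CPM in PBS-injected mice. The groups did not overlap, and the PBS-injected mice differed from one another by less than the tumor-bearing mice did. These levels came from 26 to 51 counts per tumor-bearing mouse and 37 to 53 per PBS-injected mouse. The log2 fold change of Casp1 was -0.57 (standard error 0.17), just short of the threshold (edgeR FDR = 0.0576, exact permutation p = 0.0286), and it passed without LLC1 2-2 (edgeR FDR = 0.0467), with gene length offsets (0.0452) and when each mouse had to have 10 counts or more (0.0483). Casp12, a caspase of the endoplasmic reticulum, ranged from 5.36 to 7.35 CPM against 6.55 to 8.32 CPM (log2 fold change -0.29, edgeR FDR = 0.188). Casp4, the sensor of intracellular lipopolysaccharide, ranged from 2.35 to 3.57 CPM against 2.23 to 4.49 CPM, and the wide interval of its log2 fold change, from -0.64 to 0.34, left a shift in either direction possible.

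Anti-apoptotic BCL2 proteins bind BH3-only proteins and effectors at the mitochondrial surface. Scaled by gene length, Mcl1 supplied most of their transcripts, with 68.0 ± 3.51% (SD, n = 4) of the CPM per kilobase of the 4 genes in PBS-injected mice and 66.8 ± 1.19% (SD, n = 4) in tumor-bearing mice. Bcl2l2 followed with 18.9 ± 1.31% and 17.1 ± 0.216%, then Bcl2l1 with 11.9 ± 4.11% and 15.2 ± 0.875%. Bcl2 itself made up 1.31 ± 0.1005% and 0.944 ± 0.185% (SD, n = 4 for each). The founding gene of the family was thus the least abundant of the 4 in ventricle. Mcl1 and Bcl2l2 had narrow intervals, from -0.07 to 0.24 and from -0.16 to 0.10 on the log2 scale, and neither passed the test.

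Bcl2l1, which encodes BCL-XL, had 54.1, 59.9, 56.9 and 59.5 CPM in the tumor-bearing mice against 34.9, 39.2, 30.1 and 62.3 CPM in the PBS-injected mice. PBS 2-5 exceeded every tumor-bearing mouse, while the other 3 PBS-injected mice lay well below them. With all mice the log2 fold change was 0.46 (standard error 0.17, edgeR FDR = 0.121, exact permutation p = 0.143). Without PBS 2-5 it was 0.73 (edgeR FDR = 0.00139). With all 8 mice it passed only with no filter on low counts (log2 fold change 0.48, edgeR FDR = 0.0415). Bcl2, by contrast, had 6.28, 8.95, 6.02 and 7.35 CPM against 9.87, 9.82, 8.59 and 8.56 CPM, and LLC1 1-3 alone reached into the PBS range. Its log2 fold change was -0.36 (standard error 0.13, edgeR FDR = 0.117).

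The effectors BAK1 and BOK form pores in membranes, BOK largely outside the control of the other family members. Bok (ENSMUSG00000026278, mm10 chromosome 1, 93685660 to 93695764) had 3.18, 2.90, 3.01 and 3.87 CPM in tumor-bearing mice against 5.41, 5.68, 4.77 and 3.78 CPM in PBS-injected mice. Here the groups overlapped, because LLC1 2-2 exceeded PBS 2-5. The log2 fold change of -0.58 (standard error 0.17) passed narrowly (edgeR FDR = 0.0491, exact permutation p = 0.0571), on 44 to 77 counts per tumor-bearing mouse and 63 to 81 per PBS-injected mouse. The call was lost without LLC1 1-2, 1-3 or 1-5 and without PBS 1-1, 1-3 or 2-1, where the edgeR FDR lay between 0.0656 and 0.138 and the log2 fold change between -0.60 and -0.51. With all mice it was also lost with no filter on low counts and with limma-voom (adjusted p = 0.0559 and 0.0593). Bak1 was far more abundant, at 12.2 ± 1.02 CPM per kilobase (SD, n = 4) against 2.76 ± 0.476 CPM per kilobase (SD, n = 4) for Bok in PBS-injected mice, and the interval of its log2 fold change ran from -0.23 to 0.10. Bcl2l13, an atypical family member and mitophagy receptor, had an interval from -0.03 to 0.23.

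BH3-only proteins start the mitochondrial branch. Among the 5 BH3-only members, Bad held 52.6 ± 2.35% of the CPM per kilobase in PBS-injected mice and 52.6 ± 3.45% in tumor-bearing mice (SD, n = 4 for each). Bcl2l11 had 17.7, 25.8, 27.4 and 25.8 CPM in tumor-bearing mice against 17.6, 19.98, 21.6 and 19.8 CPM in PBS-injected mice. The tumor-bearing mice exceeded the PBS-injected mice except for LLC1 1-2, which lay below 3 of them. With all mice the log2 fold change was 0.29 (standard error 0.13, edgeR FDR = 0.170), and without LLC1 1-2 it was 0.41 (edgeR FDR = 0.0286). Bid, Bad and Bmf overlapped between the groups, with log2 fold changes of -0.17, 0.07 and 0.17 and edgeR FDR values between 0.398 and 0.778. Thus no BH3-only member passed the test with all 8 mice.

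**Figure D2:**
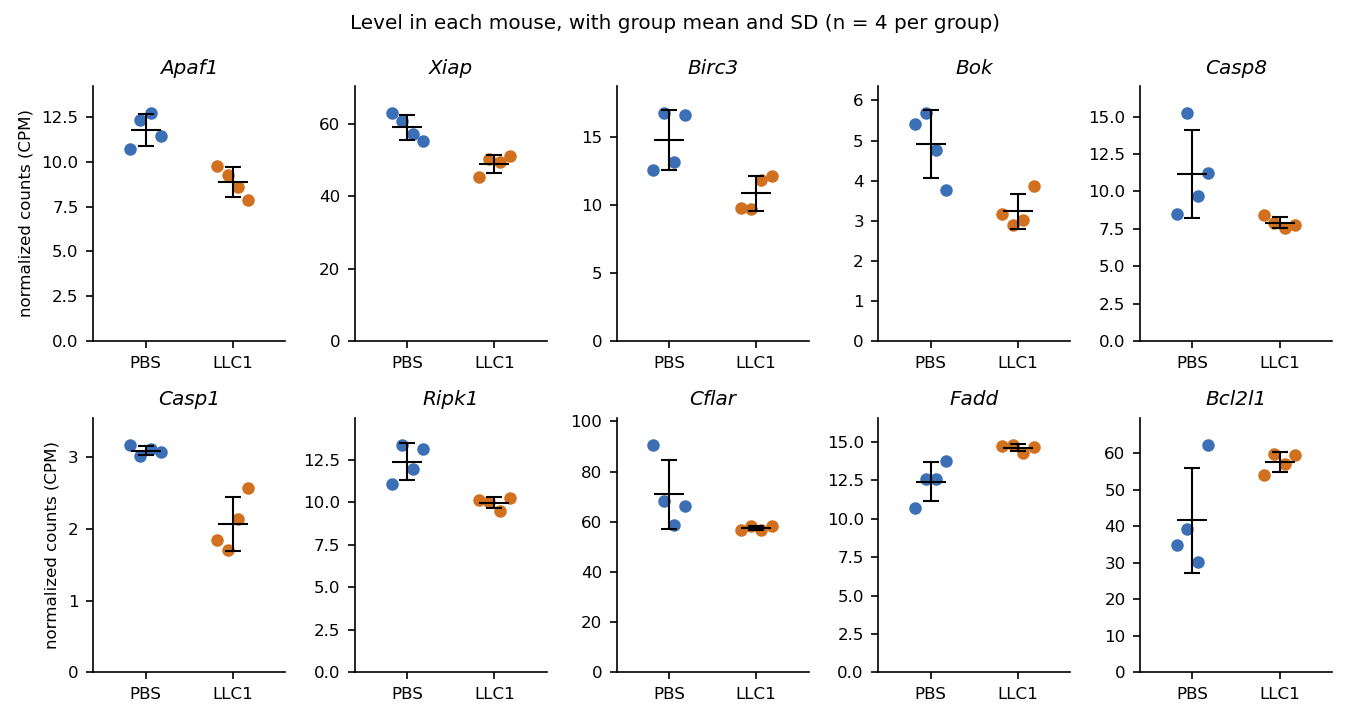
Normalized counts (CPM) of 10 members in each mouse, for the 4 PBS-injected (blue) and 4 tumor-bearing (orange) mice, with bars for the group mean and SD. In Apaf1, Xiap, Birc3, Casp8, Casp1, Ripk1 and Cflar every tumor-bearing mouse lies below every PBS-injected mouse, in Fadd every one lies above, and in Bcl2l1 the mouse PBS 2-5 stands at 62.3 CPM above the other PBS-injected mice.

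IAPs carry baculovirus IAP repeats, and XIAP is the member that inhibits caspases directly. Xiap (ENSMUSG00000025860, mm10 chromosome X, 42059679 to 42109656) had 45.4, 50.2, 49.3 and 51.0 CPM in tumor-bearing mice against 62.9, 60.8, 57.2 and 55.2 CPM in PBS-injected mice. A gap separated the groups, and the spread within each was small. Its log2 fold change was -0.27 (standard error 0.07, edgeR FDR = 0.0305, exact permutation p = 0.0286). Without LLC1 1-2, 1-3 or 1-5, or without PBS 1-3, the edgeR FDR of Xiap lay between 0.0744 and 0.0900, with log2 fold changes between -0.28 and -0.23. With all mice the call was lost with GC offsets (log2 fold change -0.10, edgeR FDR = 0.314), with gene length offsets (-0.17, 0.114) and with no filter on low counts (-0.25, 0.0530).

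Birc3 (ENSMUSG00000032000, mm10 chromosome 9, 7848699 to 7873186) encodes cIAP2, a ubiquitin ligase of tumor necrosis factor signaling. It had 9.79, 9.75, 11.8 and 12.2 CPM in tumor-bearing mice against 12.6, 16.8, 13.2 and 16.6 CPM in PBS-injected mice. The groups did not overlap, although LLC1 2-2 came close to PBS 1-1. The log2 fold change was -0.44 (standard error 0.12, edgeR FDR = 0.0465, exact permutation p = 0.0286). The call was lost without any 1 of the tumor-bearing mice and without PBS 1-3 or 2-5, with edgeR FDR values between 0.0564 and 0.134 and log2 fold changes between -0.51 and -0.38. It was also lost with all mice under upper-quartile or total-count scaling and with a covariate for the leading number in the replicate code (edgeR FDR = 0.0505, 0.0565 and 0.0577), and with gene length and GC offsets (edgeR FDR = 0.0636 and 0.0801). Birc2, its close relative cIAP1, had an interval from -0.17 to 0.13, and Birc6, a very large ubiquitin-conjugating IAP, one from -0.24 to 0.05. Of the 4 IAPs, 2 were thus called lower, against 4.61% of all genes tested, and that share rests on 2 genes. The difference between those 2 and the other 2 IAPs was not tested.

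The mitochondrial antagonists of the IAPs, Diablo and Htra2, had log2 fold changes of 0.13 and 0.12, with intervals from -0.02 to 0.28 and from -0.04 to 0.27. Aifm1, a flavoprotein that can move to the nucleus in cell death, had a log2 fold change of 0.12 (interval -0.02 to 0.25). Endog, a mitochondrial nuclease, ranged from 37.2 to 42.7 CPM in tumor-bearing mice, while PBS 1-1 stood at 53.0 CPM and the other PBS-injected mice between 27.9 and 35.5 CPM. Its log2 fold change was 0.11 with all mice (edgeR FDR = 0.709) and 0.33 without PBS 1-1 (edgeR FDR = 0.0284). Dffb, the nuclease that cuts DNA between nucleosomes, and Dffa, its inhibitor and chaperone, had log2 fold changes of 0.12 and -0.01. None of these 6 genes passed the test with all 8 mice.

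No adaptor or kinase of the death receptor branch passed the test. Fadd had 14.8, 14.8, 14.3 and 14.7 CPM in tumor-bearing mice against 10.7, 12.6, 12.6 and 13.8 CPM in PBS-injected mice, and was the only member whose tumor-bearing values all lay above the PBS values. Its log2 fold change was 0.23 (standard error 0.09, edgeR FDR = 0.134, exact permutation p = 0.0286). Tradd, the adaptor of tumor necrosis factor receptor 1, overlapped between the groups (log2 fold change 0.12, edgeR FDR = 0.660). Ripk1, the kinase that steers between survival and death at that receptor, had 10.1, 10.0, 9.52 and 10.3 CPM against 11.1, 13.4, 11.9 and 13.2 CPM. All 4 tumor-bearing mice lay below the PBS-injected mice, and the log2 fold change of -0.32 (standard error 0.09) fell short of the threshold (edgeR FDR = 0.0552), which it passed without PBS 1-1 (edgeR FDR = 0.0240). Ripk3, the kinase of necroptosis, had an interval from -0.67 to 0.26. Per kilobase its level in PBS-injected mice was near that of Ripk1 (1.95 ± 0.638 against 2.02 ± 0.177 CPM per kilobase, SD, n = 4 for each).

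Cflar, the catalytically inactive relative of caspase-8, had 56.6, 58.2, 56.8 and 58.2 CPM in tumor-bearing mice against 90.7, 68.1, 58.8 and 66.3 CPM in PBS-injected mice. The tumor-bearing values were almost equal, and PBS 2-1 lay only just above them. The log2 fold change of Cflar was -0.30 (standard error 0.11, edgeR FDR = 0.110, exact permutation p = 0.0286). It was -0.16 without PBS 1-1, and without PBS 2-1 it was -0.39 and passed (edgeR FDR = 0.0478), as it did with total counts only (-0.35, edgeR FDR = 0.0431). Groups did not overlap, with tumor-bearing mice lower, for 7 of 35 members (20%), against 8.27% of all genes tested. With tumor-bearing mice higher, this held for Fadd alone (2.86% of members), against 8.89% of all genes.

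Taken by side, the 19 pro-apoptotic members tested had a median log2 fold change of 0.07, with 10 above 0 and 9 below, and 2 were called lower. The 9 anti-apoptotic members had a median of -0.09, with 2 above 0 and 7 below, and again 2 were called lower. The remaining 7 members had a median of -0.21, with 1 above 0, and 0 were called. Over all genes tested the median was -0.01. The pro-apoptotic median turned to -0.04 without PBS 1-1 and to -0.01 without LLC1 2-2. For 20 of the 35 members, 13 of them pro-apoptotic and 5 anti-apoptotic, the 95% interval lay within 0.5 on either side of 0. The calls came to 10.5% of the pro-apoptotic and 22.2% of the anti-apoptotic members tested, against 4.61% of all genes called lower, and each share rests on 2 genes.

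**Figure D3:**
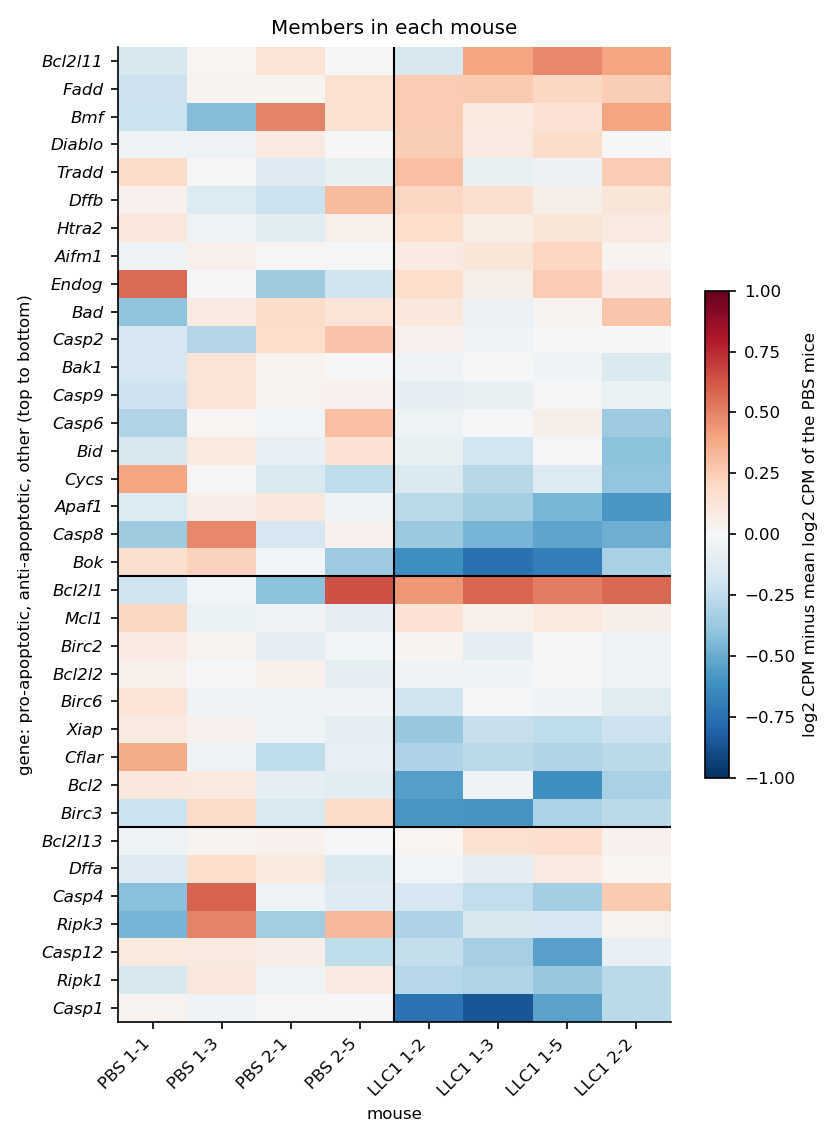
Level of the 35 members tested in each mouse (columns), as log2 CPM minus the mean log2 CPM of the 4 PBS-injected mice, from blue (lower) to red (higher). Horizontal lines divide pro-apoptotic, anti-apoptotic and other members. Apaf1, Xiap, Cflar, Ripk1 and Casp1 are blue in all 4 tumor-bearing mice, while PBS 1-1 and PBS 2-5 depart from the other PBS-injected mice at Endog, Cycs, Cflar and Bcl2l1.

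Levels per kilobase of gene length spanned a wide range. Cycs was highest in PBS-injected mice, at 144 ± 30.04 CPM per kilobase, followed by Mcl1 at 52.2 ± 5.21, Endog at 34.7 ± 10.5 and Aifm1 at 24.9 ± 0.721 CPM per kilobase (SD, n = 4 for each). Of these 4, Cycs, Endog and Aifm1 encode proteins that reside inside mitochondria in living cells, and Mcl1 one that acts at the mitochondrial surface. Bcl2l13 and Bcl2l2 came next at 14.6 ± 0.451 and 14.4 ± 0.690 CPM per kilobase and did not differ beyond their spread. The lowest were Bcl2 at 1.01 ± 0.0798, Casp4 at 0.830 ± 0.264 and Pmaip1 at 0.188 ± 0.0865 CPM per kilobase. Apaf1, at 1.31 ± 0.0991 CPM per kilobase in PBS-injected mice and 0.983 ± 0.0936 in tumor-bearing mice, was scarcer than Casp9 at 3.11 ± 0.2999 and 2.97 ± 0.0601 CPM per kilobase (SD, n = 4 for each).

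**Figure D4:**
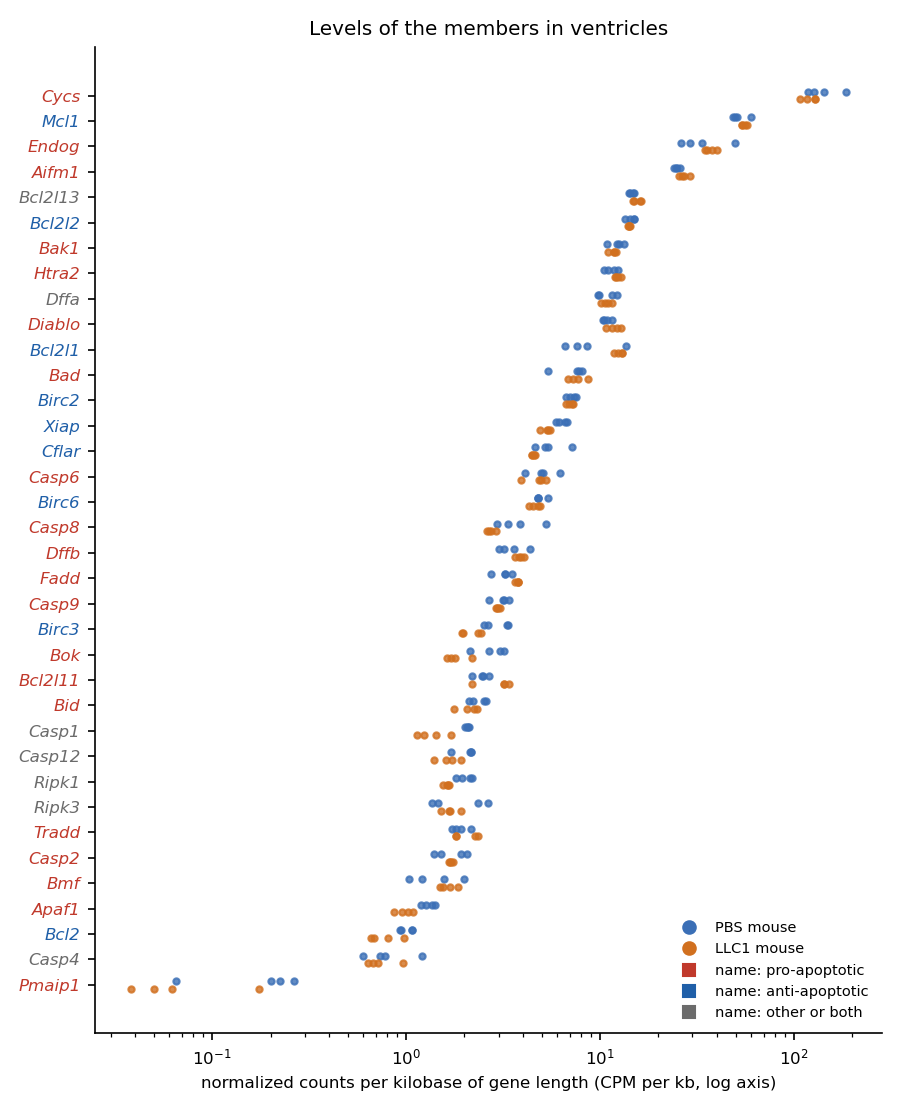
Normalized counts per kilobase of gene length (CPM per kb, log axis) of all 36 members in each PBS-injected (blue points) and tumor-bearing (orange points) mouse, ordered by the PBS mean. Gene names are colored by side, and levels run from 144 CPM per kb for Cycs to 0.188 CPM per kb for Pmaip1 in PBS-injected mice.

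The library kit named in the labels does not mark strand, and the strand setting of the counting is not given in the sources used here, so reads where genes overlap cannot be assigned with certainty. Exons of another gene covered 35.7% of Endog (Spout1), 25.6% and 18.2% of Htra2 (Aup1 and Loxl3), 21.5% of Diablo (B3gnt4), 20.5% of Bad (Gpr137), 18.2% of Bak1 (Ggnbp1) and 17.7% of Bid (Bcl2l13, itself a member). Exons of Gm49027 on the same strand covered 19.3% of Diablo, and those of Gm20521 covered 13.3% of Bcl2l2. The values of these genes are therefore uncertain. In the same annotation (GENCODE M21), no exon of Apaf1, Xiap, Birc3 or Bok overlapped another gene. Birc3 shared 177 bases at 97.2% identity with Paip2b, and Cflar shared 598 identical bases with the pseudogene Gm9845.

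GC content ran with the fold changes. Across the 35 members, Spearman's rho between the GC content of the longest transcript and the log2 fold change was 0.50, and across the 15951 genes tested that had a GC value it was 0.29, where the points share the same 8 libraries and are not independent. Xiap had the lowest GC content of all members (36.8%), and Apaf1 and Birc3 were also below the median of those genes (46.0% and 46.6% against 49.9%), while Bok was above it (61.0%). With offsets that remove the GC trend of each library, the log2 fold change of Xiap went from -0.27 to -0.10 (edgeR FDR = 0.314). Apaf1 and Birc3 kept log2 fold changes of -0.35 and -0.38 but were no longer called (edgeR FDR = 0.0537 and 0.0801). Bok alone remained called, at a log2 fold change of -0.69 (edgeR FDR = 0.0284).

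**Figure D5:**
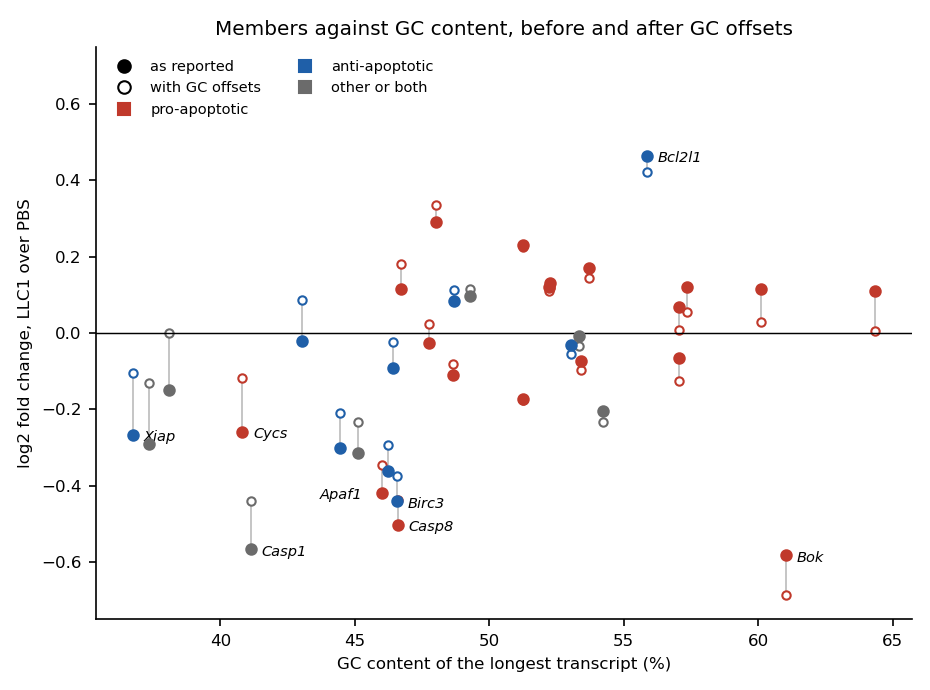
Log2 fold change of tumor-bearing over PBS-injected mice (vertical axis) against the GC content of each gene's longest transcript (horizontal axis, percent) for the 35 members tested, as reported (filled) and with GC offsets (open), joined by lines. Members of low GC content such as Xiap move toward 0 with the offsets, from -0.27 to -0.10, while Bok, at 61.0% GC, moves away from it.

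Markers of several cell types shifted with the groups. Over 8 fibroblast markers the summed CPM was 829 to 905 in tumor-bearing mice and 911 to 1132 in PBS-injected mice, with 4 called lower, and over 8 mural markers it was 1317 to 1360 against 1426 to 1634, with 0 called. Markers of dividing cells summed to 7.84 to 10.1 CPM against 22.2 to 57.6 CPM, and all 6 tested of 8 listed were called lower. The 8 endothelial markers (957 to 1079 against 1043 to 1364 CPM) and the 10 macrophage markers (222 to 279 against 231 to 346 CPM) overlapped, with 2 called lower in each list. The 8 cardiomyocyte markers were higher as a sum (104207 to 112023 against 95385 to 97942 CPM), with Myh6 alone called. Myh6 was by far the largest term of that sum, at 53471 to 56460 against 44721 to 47606 CPM. Of the other cardiomyocyte markers, Actc1 and Ryr2 had log2 fold changes of -0.05 and -0.17, and the rest were above 0 but not called. Neutrophil markers stayed scarce (3.32 to 6.12 against 1.24 to 3.00 CPM over 7 genes, with Ly6g at 1 count in all 8 mice together and 2 called higher). Markers of T cells (0.985 to 1.85 against 1.54 to 2.36 CPM over 7 genes), B cells (1.06 to 1.85 against 1.47 to 3.35 CPM over 5 genes) and erythroid cells (1429 to 5180 against 1556 to 3097 CPM over 6 genes) overlapped, with 0 called. The part of these shifts in the values of Apaf1, Xiap, Birc3, Bok, Casp1 and Casp8 was not tested.

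Beyond the members, 48 other genes of the apoptosis pathway were counted, of which 42 were tested. Bnip3, a mitochondrial protein of hypoxia and mitophagy, was the 1 gene of these called higher, at 163, 170.0, 188 and 155 CPM against 149, 141, 119.9 and 122 CPM (log2 fold change 0.35, standard error 0.09, edgeR FDR = 0.0278). That is 1 of 42, against 4.12% of all genes tested. Another 6 genes (14.3% of those tested) were called lower, against 4.61% of all genes. They included Lmnb1, a nuclear lamin cut by caspases (log2 fold change -0.74, edgeR FDR = 0.0159), and Mlkl, which ruptures the membrane in necroptosis (-0.66, edgeR FDR = 0.0427). Tnfsf10, the death ligand TRAIL, had a log2 fold change of -0.52 (edgeR FDR = 0.0427). Birc5, an IAP that acts mainly in cell division and is also on the list of dividing-cell markers, had the largest shift of the genes named here, at 0.397, 0.263, 0.328 and 0.201 CPM against 0.858, 2.10, 0.824 and 2.48 CPM (log2 fold change -2.41, standard error 0.45, edgeR FDR = 0.00920). These levels came from only 6, 4, 6 and 4 counts against 10, 30, 14 and 42 counts. Birc5 was therefore not tested when each mouse had to have 10 counts or more. Bnip3 was not called without LLC1 1-2, 1-3 or 1-5 or without PBS 1-3 or 2-1 (edgeR FDR 0.0552 to 0.0855). Mlkl was called in 1 of the 8 fits without 1 mouse (without PBS 1-1) and was lost with total counts only and with the covariate, at edgeR FDR values between 0.0542 and 0.129. Tnfsf10 was called in 3 of the 8 (without LLC1 1-2, PBS 1-1 or PBS 2-5) and was lost with gene length and GC offsets, at edgeR FDR values between 0.0709 and 0.117. Lmnb1 was lost without LLC1 1-3 or PBS 1-3 (edgeR FDR = 0.0503 and 0.0564). Without PBS 1-3 or LLC1 1-3, 1 of these pathway genes was called lower, and that gene was Birc5.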

How the data were processed

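Ventricular RNA of 4 LLC1-injected and 4 PBS-injected male mice was sequenced by the study with an unstranded TruSeq RNA v2 kit. The authors deposited, per mouse, the raw count of reads on each gene, made from mm10 alignments, and the submitters' processing notes name CASAVA, STAR and featureCounts, with versions and annotation not given in the sources used here. Counts were analysed as deposited, and every count column was used. Nothing in the labels pairs mice between groups. No 2 mice of a group agreed within sampling noise (lowest chi-square per degree of freedom 4.55).

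Genes kept by edgeR's filterByExpr were scaled by TMM and compared by the quasi-likelihood F-test in edgeR 4.0.16 (R 4.3.3), with Benjamini-Hochberg adjustment over 16111 genes. Standard errors are the absolute log2 fold change divided by the square root of F. Exact 2-sided permutation tests used log2 CPM with a prior count of 2 over 70 arrangements. CPM per kilobase used the gene lengths in the deposited table. The deposited gene positions are mm10, the build of the GENCODE M21 annotation used for GC content and overlaps, and similar transcripts were searched with BLAST 2.17.0 (at least 97% identity over 150 bases). Library totals limit precision, since 1 CPM stood for 11.7 to 19.9 counts, and the p-values measure the spread between these mice. Steps were tested on simulated counts.

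All 36 members were counted, and those called, or with groups that did not overlap, were given with the value of each mouse. The other pathway genes named are those called among 48. The members and lists were chosen with earlier results of these data known, and the study had itself picked Apaf1, Birc3, Casp8 and Xiap from these mice, so their directions are not independent evidence. Alternatives were DESeq2 1.42.0, limma-voom (limma 3.58.1), upper-quartile and total-count scaling, other filters, a covariate for the leading number in the replicate code, length and GC offsets (loess span 0.3), and each mouse left out in turn. Some genes are not reported here. Figures and tables used Python 3.11.15, pandas 2.3.3, numpy 2.4.6 and matplotlib 3.10.9.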

Additional observations from a re-analysis of the deposited data

Results flagged for a closer look

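In 3 of 72 group and gene combinations, 1 mouse stood apart from the other 3 of its group by Dixon's criterion for 4 samples, which chance meets in about 1 of 20 groups. Casp12 was low in PBS 2-5, at 6.55 CPM against 8.18 CPM in the nearest PBS-injected mouse. Bcl2l11 was low in LLC1 1-2, at 17.7 CPM against 25.8 CPM in the nearest tumor-bearing mouse. Birc6 was high in PBS 1-1, at 155 CPM against 138 CPM in the nearest PBS-injected mouse.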

How the results depend on the processing

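With all mice, the 4 members called lower became 2 with gene length offsets (Casp1 and Bok) and 1 with GC content offsets (Bok). The other 7 alternatives gave 3 to 5, though not the same genes. Apaf1 was called in all 7. Bok was lost with no filter on low counts and with limma-voom, Xiap with no filter, and Birc3 with upper-quartile scaling, total counts only and the covariate. Casp8 was added with DESeq2 and with no filter, Casp1 with at least 10 counts in every mouse, Cflar with total counts only and Cycs with the covariate. With no filter on low counts, 1 member was called higher (Bcl2l1). Leaving out each mouse in turn gave 0 to 5 members lower and 0 to 1 higher. The single member called higher was Bcl2l11 without LLC1 1-2, Endog without PBS 1-1 and Bcl2l1 without PBS 2-5. Among the other pathway genes, 1 was called higher as reported, 2 with DESeq2, with no filter on low counts, with limma-voom and with gene length offsets, and 4 with GC content offsets. Leaving out each mouse gave 0 to 3 of them higher and 1 to 9 lower. The pro-apoptotic median of 0.07 became 0.0071 with total counts only and 0.0083 with GC content offsets, and lay between -0.0398 and 0.113 when mice were left out. The anti-apoptotic median of -0.09 became -0.0239 with gene length offsets, and lay between -0.12 and -0.05 when mice were left out.

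Of the 35 members, 28 kept 1 sign of the log2 fold change in all 9 alternatives with all mice and all 8 fits without 1 mouse. These fits share mice, so a kept sign is not independent evidence, and the same count was not made over all genes. Over all genes, 663 were called higher and 743 lower as reported, 225 and 793 with total counts only, and 1002 and 610 with gene length offsets. Without 1 mouse, between 542 (PBS 1-3) and 1949 (PBS 1-1) genes were called. The causes of these shifts were not tested. Pmaip1, with 2 to 10 counts per mouse, was tested only with no filter on low counts, and was not called (edgeR FDR = 0.209). No paired analysis was possible because the groups share only the replicate code 1-3, carried by different mice.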
